A study of Mus musculus with 6 samples.

Results

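The genes described here encode the machinery that brings proteins into mitochondria, folds them and degrades them. They were chosen by name: every gene of the deposited table whose symbol is Tomm or Timm followed by a digit, and 12 named chaperones, co-chaperones and proteases. The rule found 37 of the 28812 genes in the table, of which 36 had enough counts to be tested. They comprise 11 Tomm genes, 6 Timm genes of the TIM23 translocase, 8 Timm genes of the TIM22 translocase and the small TIM chaperones, 6 matrix chaperones and co-chaperones, and 6 proteases. The Tomm rows include Tomm6os, a noncoding antisense transcript that matches the rule by name only.

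RNA came from wild-type mouse chondrocytes, the cells of cartilage, in 6 libraries. In 3 libraries the cells had been given interleukin-1 beta (IL-1β, a cytokine of inflamed joints) and mitochondria, and in the other 3 they had been given IL-1β and vehicle. All libraries therefore carry the IL-1β treatment and are labelled osteoarthritic, and the series title speaks of mitochondria of osteocytes, the resident cells of bone. No label gives the dose of IL-1β or mitochondria, or the animals, ages or passage behind the cultures. None says that replicates were separate cultures, so p-values measure only the spread between these libraries.

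Almost all mitochondrial proteins are made in the cytosol as precursors. The TOM complex of the outer membrane receives them and passes them through its pore. The TIM23 translocase of the inner membrane then takes precursors with a cleavable presequence, helped into the matrix by the chaperone Hspa9, while small TIM chaperones escort carrier proteins across the space between the membranes to the TIM22 translocase. In the matrix, Hspd1 and Hspe1 (Hsp60 and its lid) fold the newcomers, and proteases such as Lonp1, ClpXP and the m-AAA protease remove damaged or unassembled ones.

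Library totals ran from 63547854 to 66293786 deposited counts. About 4 counts were taken to stand for 1 sequenced fragment, an assumption that was not tested. Levels are given as CPM (counts scaled to library size with TMM factors) when groups are compared. They are given as FPKM (values divided by transcript length as well as depth, so that genes of different length can be set side by side) when genes are compared. In these bulk cultures, fewer cells of a type and less RNA per cell cannot be told apart. On the first principal component mitochondria replicate 1 stood at -81.44, against -27.36 and -34.70 for the other mitochondria libraries, and vehicle replicate 1 at 30.39, against 56.75 and 56.36 for the other vehicle libraries. The chondrocyte markers Col2a1, Sox9, Acan and Comp were present in every library. Others of the same list were low: Matn1 had 0.624 to 3.89 CPM over the libraries, Matn3 0.372 to 1.43 CPM and Chad 0.158 to 0.822 CPM. Summed over 10 markers, the chondrocyte list stood at 1486 to 1694 CPM with mitochondria and 1827 to 2207 CPM with vehicle. Most of this was Col2a1 and Col11a1, with means of 999.9 and 319.9 CPM with mitochondria and 1115 and 614 CPM with vehicle. Col2a1 was not called (adjusted p = 0.37, edgeR), and of the 10 markers 5 had estimates above 0 and 5 below. The 2 markers higher were Acan and Sox9 (log2 fold change 0.54 each), and the 2 lower were Hapln1 (-1.03) and Col11a1 (-0.94). Over all genes tested 6.36% were higher and 8.46% lower. The 9 osteocyte markers found summed to 622 to 699 CPM with mitochondria and 456 to 545 CPM with vehicle, nearly all of it Ackr3 and Pdpn. Dmp1 and Sost were nearly absent from both groups, with 4 counts each, in vehicle replicate 2 and vehicle replicate 1. Fgf23 had 19, 32 and 68 counts with mitochondria and 17, 8 and 24 with vehicle. Phex had 4, 8 and 14 counts with mitochondria and 0, 7 and 33 with vehicle. Of the 6 osteocyte markers tested, Ackr3 was higher and Ibsp lower. The 8 synovial fibroblast markers summed to 713 to 777 CPM with mitochondria and 885 to 1006 CPM with vehicle, and of 7 tested 1 was higher and 3 (Dpp4, Thy1 and Pdgfra) were lower. The 10 macrophage markers summed to 73.6 to 88.2 CPM with mitochondria and 69.5 to 90.4 CPM with vehicle, and the 8 skeletal muscle markers to 11.2 to 18.4 CPM with mitochondria and 13.1 to 26.0 CPM with vehicle, with none called in either list by edgeR (at an unadjusted p under 0.05, 1 macrophage marker was higher and 1 lower). The part of these shifts in the results below was not tested.

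Chondrocytes given mitochondria had higher transcript levels of 7 of the 36 genes tested and significantly lower levels of none. The 7 were the proteases Afg3l2 and Lonp1, the co-chaperones Grpel1 and Dnaja3, the small TIM chaperones Timm8a1 and Timm8b, and the cytosolic co-chaperone Tomm34. That is 19.4% of the genes tested, where 6.36% of all 17290 genes tested were higher, 8.46% lower and 14.8% either (edgeR quasi-likelihood, Benjamini-Hochberg adjusted p under 0.05). At an unadjusted p under 0.05, 13 were higher and 1, Hspd1, was lower (background 14.9% higher and 16.6% lower). DESeq2 called 10 higher and Hspd1 lower, where 10.1% of the 14922 genes to which it gave an adjusted p were higher and 14.7% lower. The changes were small, with log2 fold changes of 0.36 to 0.69 among the 7 and a median of 0.23 over the 36, against 0.00 over all genes tested. The 3 mitochondria libraries lay above the 3 vehicle libraries in 14 of the 36 genes (background 19.8% of all genes tested) and below them in 2, Hspd1 and Hspe1 (background 20.9%). When vehicle replicate 2 or vehicle replicate 3 was left out, none of the 36 genes passed. Calls were few everywhere in those 2 fits, with 0.727% and 0.736% of all genes tested higher, and the median of the 36 genes was 0.23 and 0.17.

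**Figure D1:**
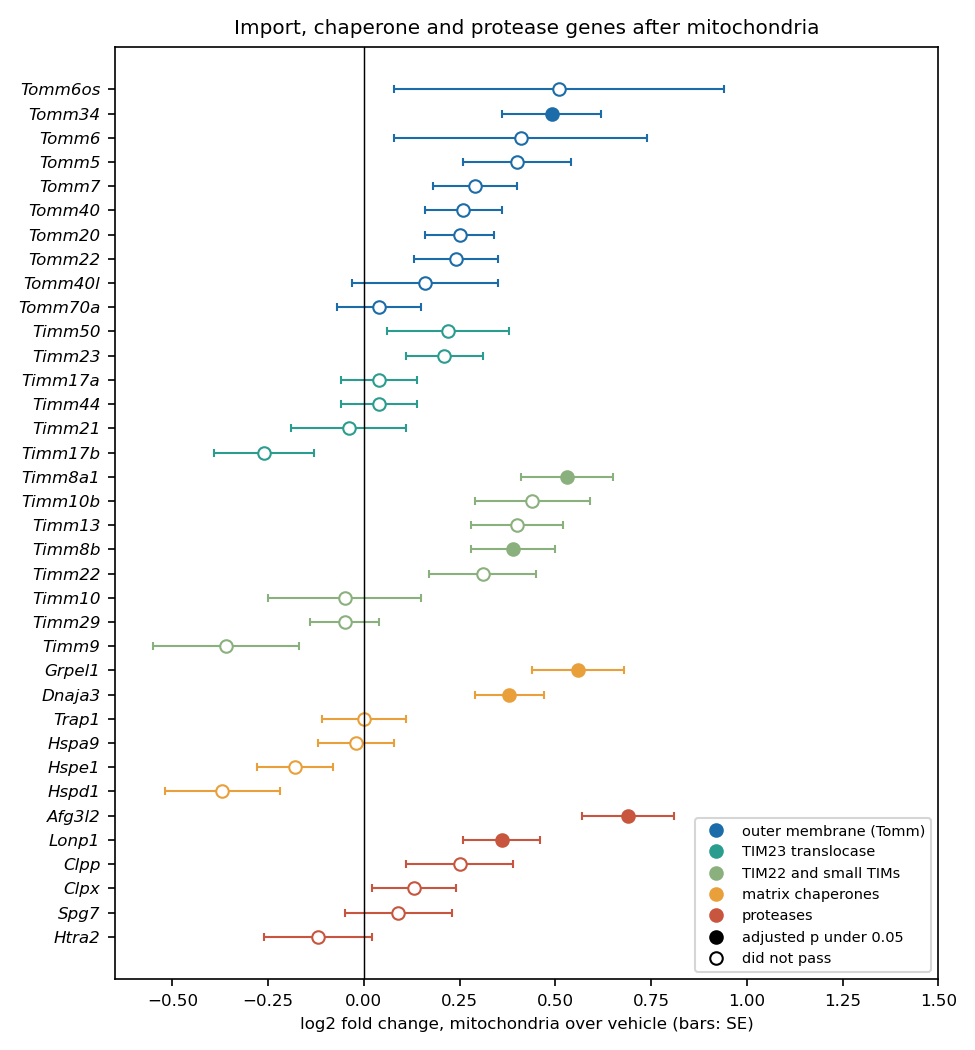
Log2 fold change, mitochondria over vehicle, of the 36 genes tested, grouped by role, with bars showing the standard error (SE). Filled points passed at an adjusted p under 0.05: these are the 7 genes Tomm34, Timm8a1, Timm8b, Grpel1, Dnaja3, Afg3l2 and Lonp1, all to the right of 0.

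Promoter sequences are given for 3 places where the results turn: Lonp1 and Grpel1, which rose, and the shared promoter of Hspd1 and Hspe1, a chaperonin pair whose levels did not rise with them. Each is the RefSeq window of 300 bases around the gene's start on GRCm38.p6, printed 5′ to 3′ on the gene's own strand. The Lonp1 window is chr17:56626854-56627153 on the minus strand, the Grpel1 window chr5:36464935-36465234 on the plus strand, and the Hspe1 window chr1:55087898-55088197 on the plus strand. Capitals mark matches to the motifs searched on both strands, which are the ATF4 and CHOP-type element TGATGNAA, the heat shock element core GAANNTTC, the palindromic NRF1 site and the antioxidant response element core TGACNNNGC.
Lonp1: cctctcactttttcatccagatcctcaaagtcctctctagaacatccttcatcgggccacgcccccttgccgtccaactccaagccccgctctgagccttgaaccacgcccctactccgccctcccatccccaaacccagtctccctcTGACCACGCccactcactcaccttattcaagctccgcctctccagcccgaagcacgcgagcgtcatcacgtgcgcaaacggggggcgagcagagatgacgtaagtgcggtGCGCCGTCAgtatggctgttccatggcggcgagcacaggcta
Grpel1: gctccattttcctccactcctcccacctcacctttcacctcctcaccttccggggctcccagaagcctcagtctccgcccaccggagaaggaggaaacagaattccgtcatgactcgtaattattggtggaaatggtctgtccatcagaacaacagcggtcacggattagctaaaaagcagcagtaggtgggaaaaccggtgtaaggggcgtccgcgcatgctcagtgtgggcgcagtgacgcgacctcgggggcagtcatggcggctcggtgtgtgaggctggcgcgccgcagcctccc
Hspe1: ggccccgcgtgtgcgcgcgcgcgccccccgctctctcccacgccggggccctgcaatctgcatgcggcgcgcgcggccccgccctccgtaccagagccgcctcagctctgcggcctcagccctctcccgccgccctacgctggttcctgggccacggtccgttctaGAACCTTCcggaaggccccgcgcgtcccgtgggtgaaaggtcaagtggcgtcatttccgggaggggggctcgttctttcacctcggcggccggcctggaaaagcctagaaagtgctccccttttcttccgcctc
The Lonp1 window holds 2 matches to TGACNNNGC, a motif found in 12.4% of all 32817 windows. The Grpel1 window holds none of the 4 motifs, and neither do the windows of Timm8a1, Timm8b, Tomm34 and Dnaja3, which also rose. No window was available for Afg3l2. The Hspe1 window holds 1 heat shock match, as 7.86% of all windows do, and it overlaps the first window of Hspd1, which runs on the opposite strand, by 285 bases. Of 34 windows matched for 31 of the genes, 2 hold TGACNNNGC, 3 hold GAANNTTC, and 0 hold TGATGNAA (3.97% of all windows) or the NRF1 site (0.966%). The 3 with GAANNTTC are windows of Timm9, Hspd1 and Hspe1, and those of Hspd1 and Hspe1 hold the same site.

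Per length, the most abundant transcript of the set was Hspa9, with a mean of 140.2 FPKM over the 6 libraries, followed by Lonp1 at 67.0, Timm8b at 58.6 and Hspd1 at 56.4 FPKM. The ranges of Lonp1, Timm8b and Hspd1 over libraries overlapped one another, and that of Hspa9 overlapped none of them. The median over the 36 genes was 13.6 FPKM, and the lowest were Timm9 at 1.73 and the antisense Tomm6os at 0.369 FPKM. Tomm20l, a relative of the receptor Tomm20, had no count in any library and was not tested. Spread within a group was modest for most genes, with a median coefficient of variation of the CPM of 11.7% among mitochondria libraries and 7.08% among vehicle libraries. Among vehicle libraries it reached 44.5% in Tomm6.

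**Figure D2:**
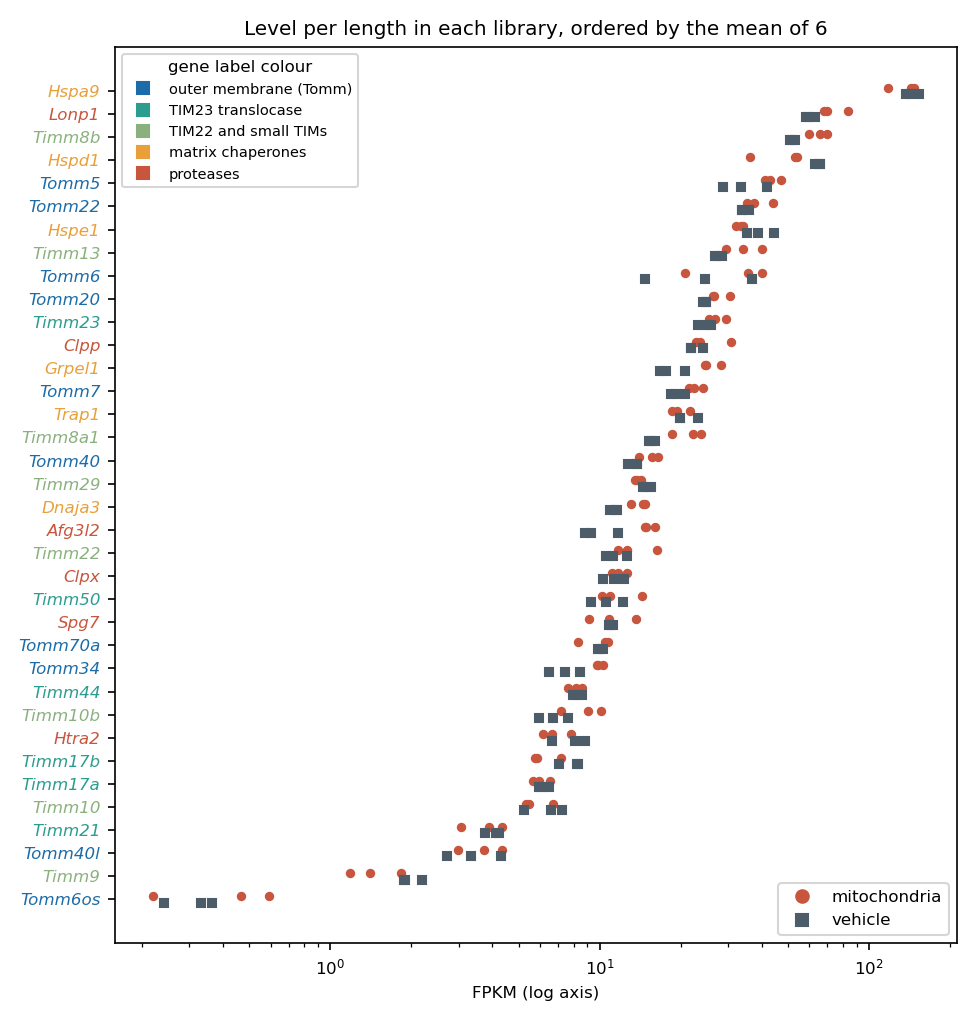
FPKM of each of the 36 genes in each library on a log axis, ordered by the mean over 6 libraries, with mitochondria libraries as circles above vehicle libraries as squares and the colour of the gene label giving its role. Hspa9 stands above the rest at a mean of 140.2 FPKM, Timm9 and Tomm6os stand lowest, and the median gene lies at 13.6 FPKM.

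The largest change among the proteases, and in the whole set, was in Afg3l2, a subunit of the m-AAA protease of the inner membrane that clears misfolded membrane proteins and helps mature mitochondrial ribosomes. Afg3l2 (ENSMUSG00000024527, chromosome 18, 67404764 to 67449172) stood at 179.9, 167 and 163 CPM with mitochondria and at 126, 97.9 and 92.9 CPM with vehicle. Every mitochondria library was above every vehicle library, and vehicle replicate 1 was the vehicle library nearest to them. The gene rose by 0.69 ± 0.12 on the log2 scale (SE; adjusted p = 0.012, edgeR). Its adjusted p was 0.068 without vehicle replicate 2 and 0.066 without vehicle replicate 3.

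Lonp1, the main ATP-dependent protease of the matrix, which degrades oxidised proteins, stood at 412, 337 and 343 CPM with mitochondria and 301, 271 and 278 CPM with vehicle. The groups did not overlap, and mitochondria replicate 1 was well above its 2 partners. Lonp1 (chromosome 17, 56614297 to 56626887) rose by 0.36 ± 0.10 (SE; adjusted p = 0.046, edgeR), to 364 ± 42.0 CPM with mitochondria against 283 ± 16.1 CPM with vehicle (SD, n = 3 each). This was the call nearest to the threshold, and with per-library offsets that correct for GC content the change was 0.20 (adjusted p = 0.075). Its adjusted p was 0.19 when vehicle replicate 2 was left out and 0.18 when vehicle replicate 3 was.

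The other 4 proteases did not pass, so that 2 of 6 were higher (background 6.36% of all genes tested). Clpp, the proteolytic core of ClpXP, averaged 35.5 ± 6.15 CPM with mitochondria and 29.8 ± 2.05 CPM with vehicle (SD, n = 3 each; log2 0.25 ± 0.14, adjusted p = 0.25, edgeR), and its estimate was 0.10 without mitochondria replicate 1. Its unfoldase partner Clpx had an estimate of 0.13 ± 0.11 (adjusted p = 0.48), which GC offsets brought to 0.34, at the threshold (adjusted p = 0.05). Spg7 (paraplegin), which assembles with Afg3l2 into the m-AAA protease, had an estimate of 0.09 ± 0.14 (adjusted p = 0.71), and its mitochondria libraries, at 69.3, 46.8 and 54.5 CPM, lay on both sides of the vehicle libraries at 53.8, 54.0 and 52.4 CPM. Htra2, a serine protease of the intermembrane space, changed by -0.12 ± 0.14 (adjusted p = 0.62). Its exons are overlapped on the opposite strand by Aup1 over 25.6% of their length and by Loxl3 over 18.2%, and since use of strand in the counting is not stated, reads of these genes cannot be told apart there.

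Of the 6 matrix chaperones and co-chaperones 2 rose (background 6.36% of all genes tested), and both encode co-chaperones of the Hspa9 cycle. Grpel1, the nucleotide exchange factor that lets Hspa9 release its client, stood at 112, 99.1 and 97.0 CPM with mitochondria and 79.4, 62.6 and 66.5 CPM with vehicle. Its groups were well separated. Grpel1 (chromosome 5, 36464998 to 36474080) rose by 0.56 ± 0.12 (SE; adjusted p = 0.017, edgeR). Its adjusted p was 0.090 without vehicle replicate 2 and 0.092 without vehicle replicate 3. Tada2b overlaps 11.6% of its exonic bases on the opposite strand, at 18.9 to 23.0 CPM. Dnaja3, a J-domain protein that hands unfolded proteins to Hspa9, stood at 65.2, 58.3 and 63.4 CPM with mitochondria and 49.2, 45.3 and 48.8 CPM with vehicle. Dnaja3 (chromosome 16, 4639989 to 4707695) rose by 0.38 ± 0.09 (adjusted p = 0.030), and its adjusted p was 0.145 without vehicle replicate 2 and 0.12 without vehicle replicate 3. Its span encloses exons of Vasn, which overlap 4.09% of its exonic bases on the same strand and had 222 to 267 CPM with mitochondria and 169.7 to 216 CPM with vehicle.

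The core chaperones themselves did not pass. Hspa9 (mortalin, the matrix Hsp70), which pulls precursors through TIM23 and folds them, stood at 575, 698 and 708 CPM with mitochondria and 721, 652 and 634 CPM with vehicle. The groups overlapped and the estimate was -0.02 ± 0.10 (adjusted p = 0.93, edgeR), with 0.12 under GC offsets. Trap1, the mitochondrial Hsp90, had an estimate of -0.00 ± 0.11 (adjusted p = 0.99). Hspd1, the chaperonin, and its co-chaperonin Hspe1 are named here after their values were seen, as the only members with every mitochondria library below every vehicle library. Hspd1 (chromosome 1, 55077835 to 55088243) stood at 108, 159 and 160.2 CPM with mitochondria and 181, 185 and 187 CPM with vehicle, with an estimate of -0.37 ± 0.15 (adjusted p = 0.12), or -0.21 (adjusted p = 0.055) without mitochondria replicate 1. That library was far below the others, and 55.8% of the gene's 31-base words also occur in other genes, chiefly the pseudogene Hspd1-ps3, which had 2.81 to 10.7 CPM. Hspe1 (chromosome 1, 55088132 to 55091307) stood at 55.5, 53.4 and 56.4 CPM with mitochondria and 56.5, 69.6 and 61.2 CPM with vehicle, with an estimate of -0.18 ± 0.10 (adjusted p = 0.28). DESeq2 called Hspd1 lower, and limma on quantile-normalised FPKM called both lower (background 11.2%).

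**Figure D3:**
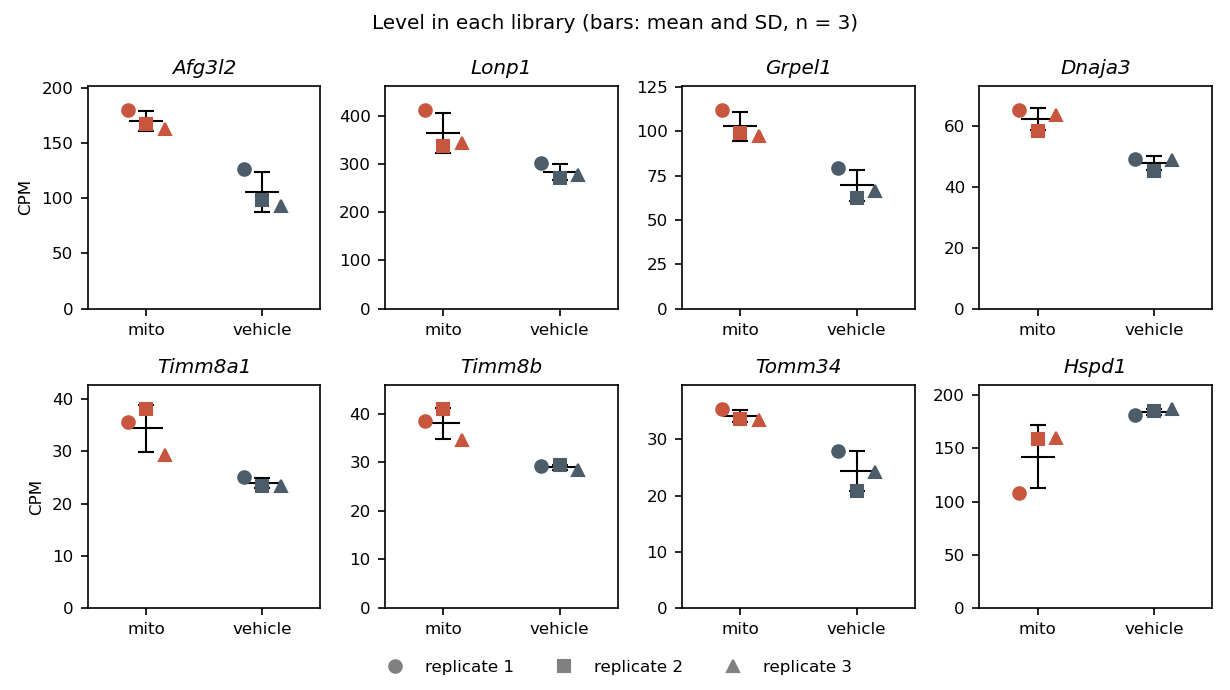
CPM of the 7 genes called and of Hspd1 in each library, mitochondria left and vehicle right, with marker shapes for the replicates and bars for mean and SD of 3 libraries. In the 7 genes every mitochondria library lies above every vehicle library, and in Hspd1 mitochondria replicate 1 lies lowest, at 108 CPM.

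Of the small TIM chaperones and the TIM22 translocase, 2 of 8 genes rose (background 6.36% of all genes tested). Timm8a1 works with Timm13 to guide precursors such as that of Timm23, and its human counterpart is mutated in a deafness and dystonia syndrome. It stood at 35.7, 38.1 and 29.4 CPM with mitochondria and 25.0, 23.4 and 23.3 CPM with vehicle, without overlap. Timm8a1 (chromosome X, 134537256 to 134541865) rose by 0.53 ± 0.12 (SE; adjusted p = 0.025, edgeR). That p was 0.11 without vehicle replicate 2 and 0.12 without vehicle replicate 3. Of its 31-base words 41.8% also occur in the transcribed pseudogene Gm9797, so its value is uncertain to that extent. Gm9797 had 7.2, 7.67 and 5.41 CPM with mitochondria and 4.65, 4.13 and 4.16 CPM with vehicle.

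Timm8b, a close relative of Timm8a1 in the intermembrane space, stood at 38.6, 41.0 and 34.7 CPM with mitochondria and 29.2, 29.4 and 28.4 CPM with vehicle. The vehicle libraries were within about 1 CPM of each other and all mitochondria libraries were above them. Timm8b (chromosome 9, 50603910 to 50605320) rose by 0.39 ± 0.11 (adjusted p = 0.039, edgeR). That p was 0.13 without vehicle replicate 2 and 0.16 without vehicle replicate 3. Nkapd1 overlaps 15.6% of its exonic bases on the opposite strand, at 6.78 to 16.1 CPM with mitochondria and 15.5 to 18.2 CPM with vehicle. Timm13, the partner of Timm8a1, averaged 53.4 ± 8.21 CPM with mitochondria and 40.5 ± 1.14 CPM with vehicle (SD, n = 3 each), with an estimate of 0.40 ± 0.12 (adjusted p = 0.064). It passed with DESeq2, with upper-quartile scaling and without mitochondria replicate 2, and its estimate was 0.21 with GC offsets.

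The remaining genes of this branch did not pass with all 6 libraries in edgeR. Timm10b and Timm22, which belong to the TIM22 translocase, had estimates of 0.44 ± 0.15 and 0.31 ± 0.14 (adjusted p = 0.084 and 0.16, edgeR). Timm10b passed with DESeq2 and without mitochondria replicate 2 (adjusted p = 0.041 in each), and the estimate of Timm22 was 0.16 without mitochondria replicate 1. Timm29, another TIM22 component, changed by -0.05 ± 0.09 (adjusted p = 0.78). Timm9 and Timm10, which form the small TIM complex that carries metabolite carriers, had estimates of -0.36 ± 0.19 and -0.05 ± 0.20 (adjusted p = 0.23 and 0.89). Both were low, at 7.17 ± 1.56 and 5.38 ± 0.709 CPM with mitochondria and 9.20 ± 0.722 and 5.58 ± 0.877 CPM with vehicle (SD, n = 3 each).

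Of the 6 TIM23 translocase genes none was called by edgeR, none had an unadjusted p under 0.05 and none was called by DESeq2, at the backgrounds given above. Timm23, the channel subunit, stood at 59.2, 51.3 and 53.5 CPM with mitochondria and 45.0, 47.2 and 49.7 CPM with vehicle. The groups did not overlap, but the change of 0.21 ± 0.10 did not pass (adjusted p = 0.19, edgeR). Its value is uncertain, since 92.7% of its 31-base words also occur in Gm10273, which had 9.51 to 12.9 CPM. Timm50, the receptor that faces the intermembrane space, had an estimate of 0.22 ± 0.16 (adjusted p = 0.40), which was 0.05 without mitochondria replicate 1. Timm44, which anchors Hspa9 at the channel, had 0.04 ± 0.10 (adjusted p = 0.84). Timm17a and Timm17b, alternative subunits of the channel, had estimates of 0.04 ± 0.10 and -0.26 ± 0.13 (adjusted p = 0.82 and 0.23). Timm21, which links TIM23 to TOM and to the respiratory chain, changed by -0.04 ± 0.15 (adjusted p = 0.90). GC offsets brought its estimate to 0.42 (adjusted p = 0.025).

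All 10 Tomm genes tested had estimates above 0, as did 8695 of all 17290 genes tested. The median log2 fold change of the 10 was 0.28, against 0.00 over all genes tested. The 1 that passed (background 6.36% higher), Tomm34, is not a subunit of the TOM complex, and the 10 include the antisense Tomm6os. Tomm70a was below 0, at -0.04 to -0.01, in the 3 limma fits to FPKM without quantile normalisation and without mitochondria replicate 2 or 3. Tomm34, a cytosolic co-chaperone that keeps precursors with Hsp70 and Hsp90 ready for import, stood at 35.4, 33.6 and 33.5 CPM with mitochondria and 28.0, 20.9 and 24.2 CPM with vehicle. The mitochondria libraries were close together and all above the vehicle libraries, which were more spread. Tomm34 (chromosome 2, 164053540 to 164071169) rose by 0.49 ± 0.13 (SE; adjusted p = 0.037, edgeR), and its adjusted p was 0.074 with GC offsets, 0.15 when vehicle replicate 2 was left out and 0.14 when vehicle replicate 3 was.

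The core of the TOM complex had estimates above 0 but did not pass. Tomm20 and Tomm22, the receptors for presequences, averaged 154 ± 12.9 and 72.4 ± 8.59 CPM with mitochondria and 129 ± 2.76 and 61.2 ± 2.19 CPM with vehicle (SD, n = 3 each), with estimates of 0.25 ± 0.09 and 0.24 ± 0.11 (adjusted p = 0.10 and 0.16, edgeR). Without mitochondria replicate 1 the estimate of Tomm22 was 0.14. Tomm40, the pore, changed by 0.26 ± 0.10 (adjusted p = 0.11), and the small subunits Tomm5 and Tomm7 by 0.40 ± 0.14 and 0.29 ± 0.11 (adjusted p = 0.090 and 0.11). Of the 10 Tomm genes tested, the mitochondria libraries lay above the vehicle libraries in 6, these 5 and Tomm34 (background 19.8% of all genes tested). In the other 4 the groups overlapped. Tomm70a, the receptor for carrier precursors and the docking site of cytosolic chaperones, stood at 91.3, 116 and 117 CPM with mitochondria and 106, 107 and 103 CPM with vehicle, with an estimate of 0.04 ± 0.11 (adjusted p = 0.85). With GC offsets it changed by 0.52 (adjusted p = 0.004).

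The last Tomm genes are uncertain. Tomm6, another small subunit, ranged from 26.7 to 51.0 CPM with mitochondria and from 17.8 to 45.4 CPM with vehicle (0.41 ± 0.33, adjusted p = 0.46, edgeR). Gm21981, a protein-coding gene on the same strand, covers 76.0% of its exonic bases and had 82.3 to 94.9 CPM with mitochondria and 53.9 to 71.2 CPM with vehicle. Tomm6os, on the opposite strand, shares 219 exonic bases with Tomm6 and changed by 0.51 ± 0.43 (adjusted p = 0.46) at about 1 CPM. Tomm40l, a relative of the pore, changed by 0.16 ± 0.19 (adjusted p = 0.62), and 64.3% of its exonic bases are overlapped by Nr1i3, which had at most 0.178 CPM.

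GC content and 1 library moved with these values, and their part in the results was not tested beyond the fits given here. The longest transcripts of the genes held 40.7% to 60.1% G and C. When each library's counts were corrected for GC content, 11 of the 36 genes were higher and 0 lower (edgeR), against 1702 higher (9.86%) and 1637 lower over all 17270 genes that could be corrected. Of the 7 calls 5 were kept, and those of Lonp1 and Tomm34, with 56.5% and 55.6% GC, were not. Tomm5, Tomm7, Tomm20, Tomm70a, Timm21 and Clpx, with 40.7% to 47.2% GC, were called with the correction and not without it in edgeR. The median over the 36 genes was 0.23 with and without it. Mitochondria replicate 1 was the highest of the 3 mitochondria libraries in 23 of the 36 genes, where it was the highest in 39.3% of all genes tested. Relative to the vehicle mean, the median of the genes stood at 0.38, 0.11 and 0.17 (log2) in mitochondria replicates 1, 2 and 3. Without replicate 1 the same 7 genes were called, and the median log2 fold change was 0.15.

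**Figure D4:**
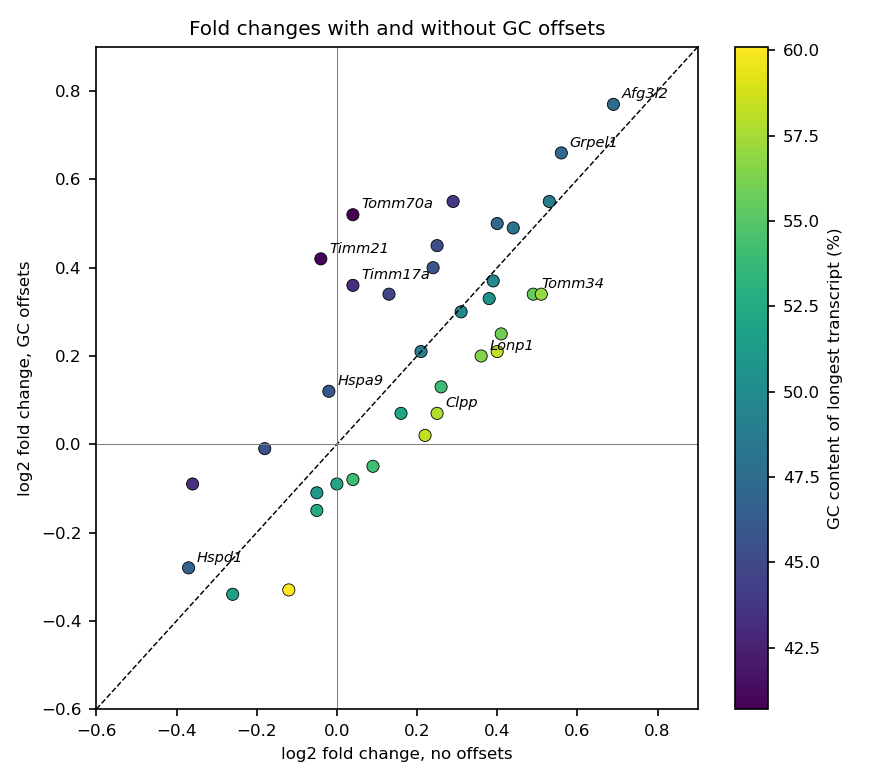
Log2 fold change of the 36 genes, mitochondria over vehicle, without (horizontal) and with (vertical) correction for GC content, coloured by the GC content of the longest transcript, with the dashed line marking equal values. Genes low in GC such as Tomm70a (0.04 and 0.52) lie above the line, and genes rich in GC such as Lonp1 (0.36 and 0.20) lie below it.

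The calls rested on few libraries. Afg3l2 and Grpel1 passed in 4 of 6 fits that each dropped 1 library, Timm8a1 in 3, Lonp1, Dnaja3 and Tomm34 in 2 and Timm8b in 1. Over all 17 alternatives the estimate of Afg3l2 was 0.58 to 0.83 (adjusted p = 1.4e-05 to 0.068), that of Grpel1 0.47 to 0.67 (adjusted p = 0.00035 to 0.092) and that of Timm8a1 0.43 to 0.63 (adjusted p = 0.0031 to 0.12). Tomm34 ran from 0.34 to 0.60 (adjusted p = 0.0086 to 0.15), Timm8b from 0.25 to 0.46 (0.016 to 0.16), Dnaja3 from 0.29 to 0.44 (0.0091 to 0.14) and Lonp1, the most variable of the 7 in relative terms, from 0.20 to 0.42 (0.018 to 0.19). All 7 estimates stayed above 0 in these alternatives.

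**Figure D5:**
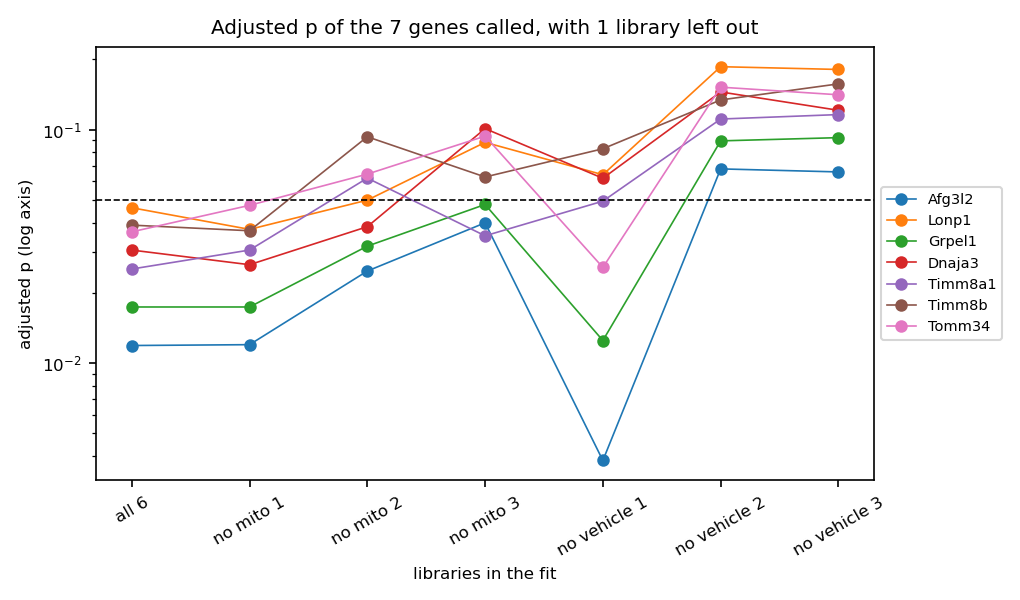
Adjusted p (log axis) of the 7 genes with all 6 libraries and with each library left out, the dashed line marking 0.05 and the thin lines joining values of 1 gene. Without mitochondria replicate 1 all 7 genes stay below the line, and with vehicle replicate 2 or 3 dropped all lie above it, at 0.066 to 0.19.

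Companion genes of the pathway were listed by function, with earlier results of these data known. Of 43, all tested in the same fit, 4 were higher and 1 lower (background 6.36% higher and 8.46% lower). Samm50, the core of the machinery that inserts barrel proteins such as Tomm40 into the outer membrane, stood at 116, 109.8 and 110.4 CPM with mitochondria and 85.8, 86.4 and 87.6 CPM with vehicle, and rose by 0.37 ± 0.08 (SE; adjusted p = 0.021, edgeR). Its partners Mtx1, Mtx2 and Mtx3 did not pass. None of 8 motor partners and redox import genes was called by edgeR, and 3 had an unadjusted p under 0.05, all higher (background 14.9%). Among them Pam16 and Dnajc15, which regulate the Hspa9 motor, had estimates of 0.43 ± 0.14 and 0.40 ± 0.13 (adjusted p = 0.073 and 0.067).

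Of 7 genes that cleave presequences and precursors, Pitrm1, the matrix peptidase that degrades the cleaved presequences, fell (background 8.46% lower). It stood at 34.8, 43.6 and 41.7 CPM with mitochondria and 55.4, 55.1 and 52.6 CPM with vehicle (-0.44 ± 0.11, adjusted p = 0.033, edgeR). Of the other 6, 3 had an unadjusted p under 0.05, all higher (background 14.9%). The estimate was 0.27 ± 0.10 for Pmpcb, a subunit of the matrix processing peptidase (adjusted p = 0.10, edgeR). Immp1l and Immp2l, inner membrane peptidases, had estimates of 0.41 ± 0.15 and 1.19 ± 0.48 (adjusted p = 0.10 and 0.13, edgeR). Immp2l was low, at 2.25, 0.919 and 1.55 CPM with mitochondria and 0.952, 0.401 and 0.705 CPM with vehicle, with overlap. Of 9 genes of inner membrane proteolysis none was called, and 1 had an unadjusted p under 0.05 (background 16.6% lower): the protease Yme1l1, at 60.4, 114 and 109 CPM with mitochondria and 129.9, 139.7 and 131 CPM with vehicle (-0.50 ± 0.21, adjusted p = 0.14). Of 7 transcription factors tied to mitochondrial stress or biogenesis, Atf4 and Nrf1 rose (background 6.36% higher). Atf4 and Nrf1 stood at 435 ± 33.8 and 52.6 ± 5.79 CPM with mitochondria and 297 ± 19.5 and 35.5 ± 1.97 CPM with vehicle (SD, n = 3 each; adjusted p = 0.0093 and 0.016, edgeR). Atf5, which directs the mammalian mitochondrial unfolded protein response, changed by 0.03 ± 0.09 (adjusted p = 0.84), and Ddit3 (CHOP) by 0.12 ± 0.10 (adjusted p = 0.48). Of 8 cytosolic chaperones that deliver precursors, Hsp90ab1 rose (0.30 ± 0.08, adjusted p = 0.037, edgeR; background 6.36% higher). Hsp90aa1 had an estimate of -0.72 ± 0.25 (adjusted p = 0.085). It stood at 319.8, 710.1 and 633 CPM with mitochondria and 906, 964 and 859.7 CPM with vehicle, so that mitochondria replicate 1 was far below the other libraries. Over all 43 companion genes DESeq2 called 6 higher and 3 lower (its background 10.1% and 14.7%), and with vehicle replicate 2 or 3 left out edgeR called none.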

How the data were processed

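Per the labels' protocols, poly(A) RNA was sequenced as paired-end libraries. The authors deposited 1 table with FPKM, normalised by them for length and depth, and estimated counts (expected counts), written as whole numbers and not normalised. Per the submitters' processing notes the tools were HISAT2 2.0, StringTie 1.3.0 and Bowtie 0.12.2 with build mm8, with no role given. Coordinates are those of the deposited table: 28732 of 28812 gene identifiers were found in GENCODE M21 on GRCm38, and 34 of the 37 genes described had the same start and end there, so positions are 1-based GRCm38.

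Counts were tested in edgeR 4.0.16 (R 4.3.3): TMM, filterByExpr with a minimum count of 10, and a two-sided quasi-likelihood test on group alone, with Benjamini-Hochberg adjustment over 17290 genes at 0.05. The SE was derived from the log2 fold change and its F statistic. Alternatives used limma 3.58.1 on log2(FPKM + 1) and log2(FPKM + 0.1) with a mean FPKM of at least 1, DESeq2 1.42.0, other scalings, counts divided by 4, loess GC offsets (span 0.3), a replicate block and 1 library left out. With counts divided by 4, 7 of the genes described were higher and 0 lower, where 1264 of 14527 genes tested were higher and 1683 lower. Shared sequence is the share of 31-base words of the longest transcript found in transcripts of other genes. Values in each library are given for the members that passed and for some others, not always the most abundant of their role. Those others were named after their values were seen. Members and lists were chosen with earlier results of these data known. Intervals and floors for counting error are not given, since the counts are estimates.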

Additional observations from a re-analysis of the deposited data

How the results depend on the processing

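Of 609 values of single genes under the alternatives, 519 kept direction and side of the threshold, 45 lost the call, 14 gained it and 31 changed sign, of which 1, Timm21 with GC offsets, also gained a call. The number of genes described that were higher was 7; it was 1 without a filter on low counts, 0 in limma on log2(FPKM + 1) without a filter and 11 with GC offsets, and 0 to 7 with 1 library left out. The number lower was 0; it was 1 with DESeq2 and 2 with limma on quantile-normalised FPKM, and 0 in every fit with 1 library left out. The median log2 fold change was 0.13 to 0.29 over the alternatives. Over all genes, 1099 were higher and 1463 lower; these were 357 and 507 without a filter, 161 and 301 in limma without a filter, and 130 to 1086 and 310 to 1694 with 1 library left out. With GC offsets 1702 were higher. Of the companion genes, 4 were higher and 1 lower; 8 were higher with GC offsets, 0 higher and 0 lower in limma without a filter, 3 lower with DESeq2, 2 lower in limma on log2(FPKM + 1) and on quantile-normalised FPKM, 0 lower without a filter, and 0 to 4 higher and 0 to 3 lower with 1 library left out. The cause of these differences was not tested.

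The genes that changed sign had estimates near 0. With upper-quartile scaling Timm10 was 0.01, Timm29 0.01, Timm21 0.02, Hspa9 0.04 and Trap1 0.06. In limma on log2(FPKM + 1), with and without a filter, Timm17a, Timm44 and Tomm70a were each -0.03, and on log2(FPKM + 0.1) they were -0.03, -0.03 and -0.04. Timm21 was 0.03 with quantile normalisation. With GC offsets Timm21 was 0.42, Timm44 -0.08, Hspa9 0.12 and Spg7 -0.05. With 1 library left out Hspa9 ran from -0.07 to 0.07, Spg7 from -0.08 to 0.21, Timm10 from -0.18 to 0.03, Timm17a from -0.02 to 0.08, Timm21 from -0.16 to 0.09, Tomm70a from -0.02 to 0.15 and Trap1 from -0.07 to 0.06.

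No label says that equal replicate numbers mark paired libraries. After group means were removed, libraries with the same number correlated at 0.0371, 0.00907 and -0.0152. With the replicate number as a block, 5 of the genes described were higher and 0 lower, 898 genes were higher and 1386 lower over all tested, and 4 companion genes were higher and 0 lower. The 3 libraries per group limit what small changes can pass.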

Other observations

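Partner genes can be compared through their ratio of FPKM within a library. The pairs were chosen after the values were seen, so no test was made. Grpel1 over Hspa9, the chaperone it serves, was 0.238, 0.173 and 0.167 with mitochondria and 0.135, 0.117 and 0.128 with vehicle, without overlap. Afg3l2 over Spg7, its m-AAA partner, was 1.19, 1.63 and 1.37 with mitochondria and 1.07, 0.831 and 0.811 with vehicle, also without overlap. Clpx over Clpp was 0.359, 0.555 and 0.495 with mitochondria and 0.511, 0.469 and 0.516 with vehicle, and Hspd1 over Hspe1 was 1.09, 1.66 and 1.59 with mitochondria and 1.79, 1.48 and 1.70 with vehicle, both with overlap. Timm8a1 over Timm13 was 0.555, 0.803 and 0.545 with mitochondria and 0.594, 0.543 and 0.571 with vehicle, with overlap. Timm8b over Timm13 was 1.64, 2.37 and 1.76 with mitochondria and 1.91, 1.87 and 1.91 with vehicle, also with overlap. Tomm20 over Tomm70a was 3.68 in mitochondria replicate 1, against 2.52 and 2.48 in the other mitochondria libraries and 2.49, 2.42 and 2.46 with vehicle, so that 1 library set the difference between the means of this pair.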
